A study of Mus musculus with 24 samples.

Results

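The circadian clock of the mouse lung was described through 10 genes: the activators Arntl and Npas2, the repressors Per1, Per2, Per3, Cry1, Nr1d1 and Nr1d2, and the output genes Dbp and Tef. The members were chosen by name and located on the array through the RefSeq transcript given for each probe. All 10 were found among the 19722 genes named on the array, and all 10 were among the 15893 genes tested. Whole lungs of healthy C57BL/6 mice, for which the labels give no genetic change and no treatment, were profiled at postnatal days 1, 4, 7 and 14 (5 samples each) and at 6 weeks, given here as day 42 (4 samples). Total RNA of each of the 24 samples was labelled with Cy3 and hybridized to 1 single-colour Agilent array, on which the brightness of a spot reads the amount of a transcript. The samples are labelled as biological replicates, with nothing that says each is a separate animal. A p-value between ages sets a difference against the spread within ages over all 24 samples, moderated by that of other genes. Whether that is a spread between animals is not known. The labels do not give the hour at which lungs were taken. Differences between ages and differences in that hour therefore cannot be told apart. Although the title of the series speaks of fetal lungs, every sample is labelled as postnatal.

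The clock is a feedback loop of transcription that runs in nearly every cell of the body, the lung included. Arntl (BMAL1 protein) pairs with Clock or with Npas2 and binds E-boxes in the promoters of Per and Cry genes, whose proteins return to the nucleus and inhibit that pair. The same activators drive Nr1d1 and Nr1d2 (REV-ERB alpha and beta), which repress Arntl through ROR elements, and Dbp and Tef, which act on D-boxes of clock output genes and of Per genes. In adult tissues Arntl and the group of Dbp, Per and Nr1d genes peak at roughly opposite times of day.

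The promoters of 5 members are printed because they hold the elements named above and belong to genes that moved between ages. RefSeq (GRCm38.p6) windows of 300 bases, from 250 before to 50 after a transcript start, were given for 9 of the 10 members, in 12 windows. Each was searched on both strands for the E-box (CACGTG), the E-prime box (CACGTT or AACGTG), the D-box (TTATGTAA, its reverse complement TTACATAA, or TTACGTAA) and the core of the ROR element (TAGGTCA or TGGGTCA, reverse complements TGACCTA and TGACCCA). Capitals mark the matches, none of which overlapped another, and sequences run 5′ to 3′ on the strand of the gene.
Arntl, chr7:113207261-113207560, plus strand: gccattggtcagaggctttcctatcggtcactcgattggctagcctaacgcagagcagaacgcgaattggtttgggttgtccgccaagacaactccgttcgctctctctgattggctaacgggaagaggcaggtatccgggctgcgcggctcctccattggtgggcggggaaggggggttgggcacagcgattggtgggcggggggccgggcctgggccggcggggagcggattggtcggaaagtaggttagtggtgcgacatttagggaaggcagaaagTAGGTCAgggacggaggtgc
Per1, chr11:69098699-69098998, plus strand: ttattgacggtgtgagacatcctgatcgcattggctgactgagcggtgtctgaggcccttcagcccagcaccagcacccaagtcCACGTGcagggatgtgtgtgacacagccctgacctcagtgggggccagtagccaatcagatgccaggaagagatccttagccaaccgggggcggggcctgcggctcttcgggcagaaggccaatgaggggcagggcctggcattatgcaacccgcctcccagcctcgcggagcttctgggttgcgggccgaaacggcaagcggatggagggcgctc
Per3, chr4:151044616-151044915, minus strand: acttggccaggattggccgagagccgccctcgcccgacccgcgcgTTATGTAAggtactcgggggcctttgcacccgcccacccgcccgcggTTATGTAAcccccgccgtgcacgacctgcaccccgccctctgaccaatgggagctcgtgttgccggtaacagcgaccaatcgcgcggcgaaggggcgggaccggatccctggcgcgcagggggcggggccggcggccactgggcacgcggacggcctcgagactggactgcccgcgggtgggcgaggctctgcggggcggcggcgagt
Cry1, chr10:85185005-85185304, minus strand: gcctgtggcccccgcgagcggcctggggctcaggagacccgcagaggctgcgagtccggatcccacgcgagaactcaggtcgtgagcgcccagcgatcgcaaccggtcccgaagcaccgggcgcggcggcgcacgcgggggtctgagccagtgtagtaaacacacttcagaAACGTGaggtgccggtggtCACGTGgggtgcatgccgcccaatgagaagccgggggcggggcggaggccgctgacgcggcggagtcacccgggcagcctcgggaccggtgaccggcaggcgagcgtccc
Nr1d1, chr11:98775328-98775627, minus strand: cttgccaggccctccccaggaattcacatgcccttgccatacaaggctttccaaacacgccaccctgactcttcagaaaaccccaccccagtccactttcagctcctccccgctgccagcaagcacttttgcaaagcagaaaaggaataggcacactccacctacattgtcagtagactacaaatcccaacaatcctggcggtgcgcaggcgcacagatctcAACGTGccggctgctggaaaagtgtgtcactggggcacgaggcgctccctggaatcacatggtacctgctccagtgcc
The core of the ROR element lay 31 bases into the transcribed part of this Arntl window. An E-box stood 166 bases before the Per1 start. Per3 carried D-boxes 205 and 158 bases before its start. Cry1 held an E-box at 60 and an E-prime box at 79 bases before the start, and Nr1d1 an E-prime box at 28 bases before it. Both windows of Tef also held an E-box, and no element was found in the windows of Dbp, Npas2 and Nr1d2, in a second window of Per1 or in a second window of Arntl. Of 32851 mouse promoter windows of this length, 7.15% held an E-box, 4.68% an E-prime box, 1.06% a D-box and 6.45% the core of a ROR element. A match describes the letters of a window and says nothing of binding in these samples.

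A level below is log2 of the processed signal minus the 75th percentile of that log2 signal on its own array, and values within an age follow replicates 1 to 5. Levels of different genes come from different probes and were not compared with each other. A difference is the later age minus the earlier one on the log2 scale, with its SE from a single limma fit to all 24 arrays, and with Benjamini-Hochberg adjusted p over the 15893 genes (threshold 0.05). Probes of 9 members were well above background on all 24 arrays. Npas2 was well above background on 11 of 24, which were 3, 2, 2, 1 and 3 arrays at days 1, 4, 7, 14 and 42. Dbp had a pair of probes whose means by age differed by little (2.20 and 2.12 at day 1, 4.42 and 4.42 at day 14), and each other member had 1. In whole lung, fewer cells that express a gene and less of its RNA per cell cannot be told apart.

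Arrays that stood apart bore on several members. Between 50.4% and 79.7% of the spots of an array were well above background, and 5 arrays lay far from the rest along principal component 1 (49.8% of the variance). They were replicates 4 and 5 of day 1, replicates 1 and 3 of day 4, and replicate 4 of day 42. The same 5 had the lowest shares of spots well above background (50.4% to 56.0%, the next 57.0%) and the lowest 75th percentiles (476.1 to 979.3 intensity units, the next 995.5), and the part of signal strength in the values of Per1, Nr1d2, Dbp and other members on them was not tested. On the second component (27.9%), day 14 replicate 5 scored -8.61, between 40.5 to 48.5 for the other day 14 arrays and -48.8 to -26.2 for day 7. All 7 lung epithelium markers (Sftpc, Sftpb and Sftpa1 among them) and all 3 endothelium markers were well above background on all 24 arrays. The arrays came on 3 slides of 8, each with samples of all 5 ages. An age had 1 or 2 arrays on a slide, so ranges within slides rest on few arrays. On slide 3, day 42 was replicate 4 alone, which stood apart, and day 1 was replicate 3 alone.

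None of the 10 members passed the test between neighbouring ages of the first week, and 6 of the 10 passed it between day 14 and day 7. By the F-test over the 5 ages 8 of 10 differed (limma, adjusted p under the threshold), against 31.8% of all genes, and Npas2 (adjusted p = 0.173) and Tef (adjusted p = 0.0636) did not pass. For day 4 against day 1 the test called 0 of 10 members, against 0.0629% of all genes (10 genes), and 0 members but 817 of all genes had an unadjusted p under the threshold. For day 7 against day 4 it also called 0 of 10, against 0.00629% of all genes (1 gene), with 2 members and 1347 of all genes at an unadjusted p under the threshold. For day 14 against day 7 it called 6 of 10, of which 5 were higher and 1 lower at day 14, against 11.6% of all genes (6.04% higher and 5.54% lower). Day 42 against day 14 gave 4 of 10, 1 higher and 3 lower, against 3.69% (2.18% higher and 1.51% lower), and day 42 against day 1 gave 4 of 10, 3 higher and 1 lower, against 26.7% (13% higher and 13.7% lower). The comparisons of day 14 with day 7 and of day 42 with day 14 share the day 14 arrays.

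**Figure D1:**
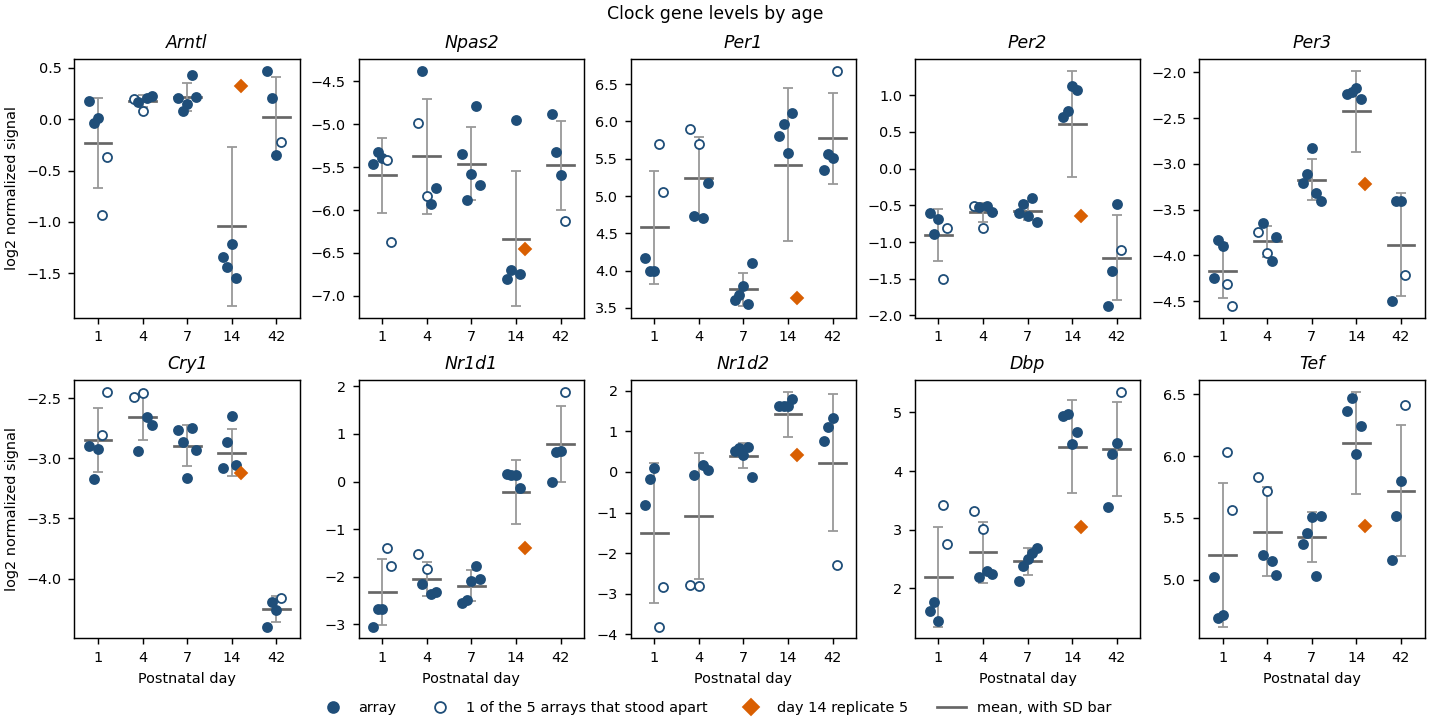
Level of each clock gene (y axis, log2 of the processed signal minus the 75th percentile of its array) by postnatal day (x axis), 1 point per array, n = 5 at days 1 to 14 and n = 4 at day 42. Horizontal lines are means and bars SD, open circles are the 5 arrays that stood apart, and the diamond is day 14 replicate 5, which sits at the day 7 level for Arntl (0.33), Per1 (3.63) and Per2 (-0.64).

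Arntl, the activator without which the loop does not run, was lower at day 14 in 4 of 5 arrays. Its levels were 0.18, -0.04, 0.01, -0.94 and -0.37 at day 1, 0.20, 0.17, 0.08, 0.20 and 0.23 at day 4, and 0.21, 0.08, 0.14, 0.43 and 0.22 at day 7. They were -1.34, -1.44, -1.22, -1.55 and 0.33 at day 14, and 0.47, 0.21, -0.35 and -0.22 at day 42. The first 4 day 14 arrays were below every other array of the series, and replicate 5 was within the range of day 7, so the day 14 and day 7 groups overlapped. Arntl averaged -1.04 ± 0.78 at day 14, against 0.22 ± 0.13 at day 7 (SD, n = 5 each), a difference of -1.26 ± 0.28 (limma, adjusted p = 0.00324). Within the 3 slides taken alone this difference ran from -1.57 to -0.74, and without day 14 replicate 5 it was -1.60 ± 0.20. Arntl was higher at day 42 than at day 14 by 1.07 ± 0.29 (limma, adjusted p = 0.042), with -0.35 to 0.47 at day 42 against -1.55 to 0.33 at day 14 (0.23 to 1.81 within slides). That call was lost when any 1 of 15 arrays was left out (day 4 replicates 2 to 5, day 7 replicates 1, 2, 3 and 5, day 14 replicates 1 to 4 and day 42 replicates 1, 2 and 4), whereas without day 14 replicate 5 the difference was 1.41 ± 0.21 (adjusted p = 0.000272). The call also ended with normexp background (adjusted p = 0.0518), the authors' table (0.0543) and no filter on dim probes (0.0556). In order of mean, Arntl stood at -1.04 at day 14, -0.23 at day 1, 0.03 at day 42, 0.18 at day 4 and 0.22 at day 7, and the 4 ages above day 14 overlapped one another.

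Npas2, which can take the place of Clock beside Arntl, was close to background throughout. Its levels ran from -6.37 to -5.33 at day 1, from -5.93 to -4.38 at day 4 and from -5.88 to -4.79 at day 7. At day 14 they were -6.81, -6.70, -4.95, -6.74 and -6.46, and at day 42 -4.89, -5.32, -5.59 and -6.13. Replicate 3 was the single day 14 array on which the probe was well above background, and the values of the other 4 day 14 arrays, not well above background, give no order. The difference of day 14 from day 7 was -0.87 ± 0.36 (limma, adjusted p = 0.131), which passed without day 14 replicate 3 (-1.22, adjusted p = 0.0157), when no day 14 array with a measured level was left. It was -0.06 with normexp background (adjusted p = 0.927), so no size is read from it. Markers of thymus and heart muscle were also higher on that array: the mean level of 4 thymus markers was -1.11 there, against -4.38 to -3.84 on the other day 14 arrays, with 2 to 4 of the 4 well above background, and that of 4 heart muscle markers was 5.22, against 2.11 to 3.71. The mean of 4 brown fat markers was -0.83, inside the range of the other day 14 arrays (-4.01 to -0.49). On day 1 replicate 2 the heart muscle mean was higher still (7.56), and Npas2 was -5.33, the top of its day 1 range. The part of these markers in the Npas2 value was not tested.

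Among the Per genes, which encode the inhibitors that accumulate late in each cycle, Per1, Per2 and Per3 were all higher at day 14 than at day 7. Per2 was level through the first week, with -1.50 to -0.61 at day 1, -0.81 to -0.51 at day 4 and -0.72 to -0.40 at day 7. At day 14 it was 0.71, 0.79, 1.13, 1.07 and -0.64, and at day 42 -1.87, -1.39, -0.48 and -1.10. The first 4 day 14 arrays were above all others of the series, and replicate 5 was again at the day 7 level. Per2 was higher at day 14 than at day 7 by 1.18 ± 0.28 (limma, adjusted p = 0.00548; 0.77 to 1.42 within slides). It fell at day 42 by 1.82 ± 0.29 relative to day 14 (limma, adjusted p = 0.000666), and the range within slides was -2.57 to -1.35. The difference of day 42 from day 1 was -0.31 ± 0.29 (adjusted p = 0.483).

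Per3 had a higher mean at each later age up to day 14. It was -4.25, -3.83, -3.90, -4.31 and -4.55 at day 1, -3.75, -3.65, -3.97, -4.06 and -3.80 at day 4, and -3.21, -3.10, -2.83, -3.31 and -3.40 at day 7. Day 14 gave -2.24, -2.22, -2.17, -2.29 and -3.21, and day 42 gave -4.49, -3.40, -3.41 and -4.22. All 5 day 7 arrays were above all 5 day 4 arrays, although the difference of 0.67 ± 0.23 did not pass (limma, adjusted p = 0.376). Of the 10 members 2 had groups that did not overlap in that comparison, Per3 (higher at day 7) and Per1 (lower at day 7), against 3.4% of all genes. Per3 was higher at day 14 than at day 7 by 0.75 ± 0.23 (limma, adjusted p = 0.035; 0.38 to 1.07 within slides), a call that ended when 1 of 8 arrays was left out, day 7 replicates 1, 2, 4 or 5 or day 14 replicates 1 to 4. It also ended with slide as a block (0.68, adjusted p = 0.0558), normexp background (0.57, 0.057), median scaling (0.55, 0.176) and the authors' table (0.63, 0.0552). Without day 14 replicate 5 the difference was 0.94 ± 0.21 (adjusted p = 0.00296). At day 42 all 4 arrays were below all 5 of day 14, by -1.45 ± 0.24 on average (limma, adjusted p = 0.000976; -2.25 to -1.15 within slides).

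Per1, the Per gene that also answers glucocorticoids and other acute stimuli in other settings, had its lowest mean at day 7. Its levels were 4.16, 3.99, 4.00, 5.69 and 5.05 at day 1, 5.90, 4.74, 5.70, 4.70 and 5.18 at day 4, and 3.61, 3.68, 3.80, 3.55 and 4.11 at day 7. They were 5.81, 5.97, 5.58, 6.12 and 3.63 at day 14, and 5.35, 5.56, 5.51 and 6.68 at day 42. Every day 7 array was below every day 4 array, yet the difference of -1.49 ± 0.42 did not pass (limma, adjusted p = 0.313). Without the 5 arrays that stood apart and day 14 replicate 5 it was -1.12 ± 0.15 and passed (adjusted p = 0.00354), and Per1 was then also higher at day 4 than at day 1 (0.82 ± 0.16, adjusted p = 0.0241). Per1 was higher at day 14 than at day 7 by 1.67 ± 0.42 (limma, adjusted p = 0.00878; 0.93 to 2.37 within slides), with 4 of the 5 day 14 arrays above all of day 7. Within slides the difference of day 42 from day 1 ran from 0.42 to 2.68, the latter day 42 replicate 4 minus day 1 replicate 3. Over all arrays it was 1.19 ± 0.44 (limma, adjusted p = 0.0481). This last call ended with slide as a block (1.22, adjusted p = 0.0563), when any 1 of 19 arrays was left out (all but day 1 replicates 4 and 5, day 4 replicate 1 and day 14 replicates 4 and 5), under median scaling (adjusted p = 0.109) and with no filter on dim probes (0.0601). Without the 5 arrays that stood apart it was 1.42 ± 0.43 (adjusted p = 0.0132).

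Cry1, whose protein is the strong repressor partner of the Per proteins, overlapped between all ages up to day 14 and was lower at day 42. It was -2.90, -3.17, -2.92, -2.80 and -2.45 at day 1, -3.08, -2.87, -2.65, -3.05 and -3.12 at day 14, and -4.40, -4.19, -4.26 and -4.16 at day 42. At days 4 and 7 it ran from -2.94 to -2.46 and from -3.17 to -2.75. All 4 day 42 arrays were below every array of the earlier ages. Cry1 fell at day 42 by 1.30 ± 0.16 relative to day 14 (limma, adjusted p = 2.67e-05) and by 1.40 ± 0.16 relative to day 1 (limma, adjusted p = 4.92e-07). Within slides these differences ran from -1.32 to -1.27 and from -1.55 to -1.24, the narrowest ranges among the calls of members. With normexp background they were smaller, -0.73 (adjusted p = 0.0131) and -0.87 (adjusted p = 0.00029), and both calls held. Cry1 was 1 of 2 members with groups that did not overlap between day 42 and day 14, beside Per3 and against 11.5% of all genes, and Cry1 (lower) and Nr1d1 (higher) were the 2 between day 42 and day 1, against 16.5%. Lung epithelium markers (mean of 7) were 6.21 to 7.35 at day 42, against 5.93 to 6.36 at day 14 and 5.30 to 6.95 at day 1. On arrays that did not stand apart they were 6.21 to 6.46 at day 42 and 5.30 to 5.85 at day 1. Their part in the differences of day 42 was not tested.

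Nr1d1, a nuclear receptor that represses Arntl, had the widest difference of the members between day 42 and day 1. Its levels were -3.05, -2.67, -2.68, -1.40 and -1.77 at day 1, -1.51, -2.15, -1.84, -2.37 and -2.32 at day 4, and -2.55, -2.50, -2.09, -1.77 and -2.05 at day 7. Day 14 gave 0.15, 0.14, 0.15, -0.13 and -1.40, and day 42 gave -0.02, 0.62, 0.63 and 1.89. All 5 day 14 arrays were above all 5 day 7 arrays, although replicate 5 was closer to day 7 than to the other day 14 arrays. Nr1d1 was higher at day 14 than at day 7 by 1.97 ± 0.36 (limma, adjusted p = 0.000638; 1.30 to 2.50 within slides), and Nr1d1 and Dbp were the 2 members whose groups did not overlap in this comparison, against 16.7% of all genes. Nr1d1 was higher at day 42 than at day 1 by 3.09 ± 0.38 (limma, adjusted p = 1.66e-06, with 2.21 to 4.57 within slides). The 4.57 is day 42 replicate 4, which stood apart, minus day 1 replicate 3. The further difference of day 42 from day 14, 1.00 ± 0.38, did not pass (adjusted p = 0.18). In order of mean Nr1d1 stood at -2.31 at day 1, -2.19 at day 7, -2.04 at day 4, -0.22 at day 14 and 0.78 at day 42, and the first 3 of these overlapped.

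Nr1d2, its close relative, had levels that split by array more than by age. At day 1 they were -0.81, -0.18, 0.09, -3.81 and -2.85, at day 4 -2.78, -0.06, -2.81, 0.18 and 0.06, and at day 7 0.51, 0.59, 0.42, 0.61 and -0.12. At day 14 they were 1.62, 1.63, 1.63, 1.79 and 0.42, and at day 42 0.75, 1.11, 1.32 and -2.28. The 5 arrays that stood apart held the 5 lowest values of the series (-3.81 to -2.28). With them in the fit, the differences of day 14 from day 7 (1.02 ± 0.77, limma, adjusted p = 0.52) and of day 42 from day 1 (1.74 ± 0.81, adjusted p = 0.127) did not pass. Without them Nr1d2 was higher at day 14 than at day 7 by 1.02 ± 0.24 (adjusted p = 0.00317) and higher at day 42 than at day 1 by 1.36 ± 0.31 (adjusted p = 0.0017). Leaving out day 42 replicate 4 alone also let the day 42 against day 1 difference pass (2.57, adjusted p = 0.0138).

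Dbp, the output factor whose RNA swings widely over the day in adult liver, was higher at days 14 and 42 than in the first week. It was 1.62, 1.76, 1.44, 3.43 and 2.75 at day 1, 3.32, 2.20, 3.00, 2.30 and 2.24 at day 4, and 2.12, 2.37, 2.51, 2.61 and 2.68 at day 7. At day 14 it was 4.94, 4.98, 4.47, 4.67 and 3.05, and at day 42 3.39, 4.30, 4.48 and 5.36. Replicates 1 to 4 of day 14 and replicates 2 to 4 of day 42 were above every array of days 1 to 7. Day 14 replicate 5 was above all day 7 arrays and below the other day 14 arrays, and inside the range of day 1. Dbp was higher at day 14 than at day 7 by 1.96 ± 0.41 (limma, adjusted p = 0.00211; 1.20 to 2.54 within slides) and higher at day 42 than at day 1 by 2.18 ± 0.43 (adjusted p = 0.000493; 0.87 to 3.91 within slides). The 3.91 is day 42 replicate 4, which stood apart, minus day 1 replicate 3. Between day 42 and day 14 Dbp differed by -0.04 ± 0.43 (limma, adjusted p = 0.971).

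Tef, a relative of Dbp that binds the same D-boxes, had a smaller range. Its levels were 4.69 to 6.03 at day 1, 5.04 to 5.83 at day 4 and 5.03 to 5.51 at day 7. Day 14 gave 6.37, 6.47, 6.02, 6.25 and 5.43, and day 42 gave 5.16, 5.52, 5.80 and 6.41. Replicates 1 to 4 of day 14 were above all day 7 arrays and replicate 5 was among them. The difference of day 14 from day 7, 0.76 ± 0.27, missed the threshold (limma, adjusted p = 0.0742), and it passed when day 14 replicate 5 (0.93, adjusted p = 0.0216), day 1 replicate 4 or day 42 replicate 4 was left out. Without the 5 arrays that stood apart it was 0.76 ± 0.17 (adjusted p = 0.00247), and Tef was then also higher at day 42 than at day 1 (0.68 ± 0.22, adjusted p = 0.0192).

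**Figure D2:**
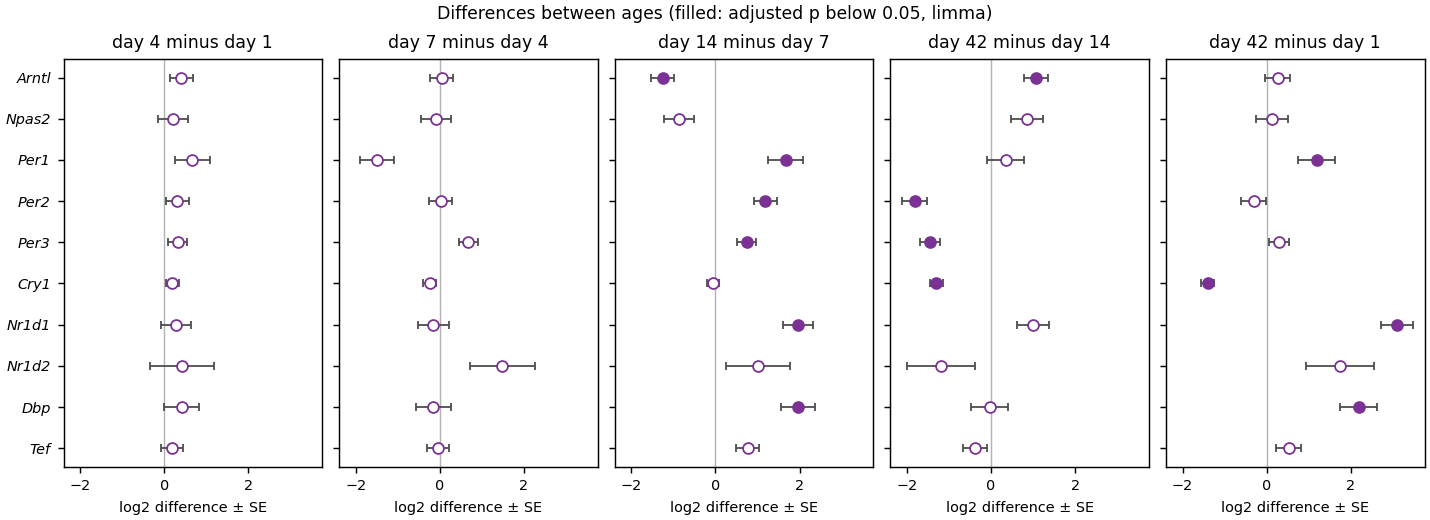
Log2 difference ± SE (x axis, later age minus earlier age) of each clock gene (y axis) in the 5 comparisons, from the limma fit to all 24 arrays. Filled points have an adjusted p under 0.05: none in the first 2 panels, 6 for day 14 minus day 7, and 4 each for day 42 minus day 14 and day 42 minus day 1.

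Without the 5 arrays that stood apart, members past the test numbered 0, 0, 8, 5 and 6 of 10 in the order of day 4 against 1, 7 against 4, 14 against 7, 42 against 14 and 42 against 1. The shares of all genes called were then 0.0818%, 0.0503%, 38.5%, 13.5% and 46.6%. With day 14 replicate 5 left out as well members numbered 1, 1, 8, 6 and 6, against 1.64%, 0.164%, 44.7%, 14.2% and 48.5% of all genes. The median difference of the 10 members was 0.31 for day 4 against day 1 and -0.06 for day 7 against day 4, where that of all genes tested was -0.0014 and -0.23. It was 0.89 for day 14 against day 7, -0.21 for day 42 against day 14 and 0.40 for day 42 against day 1, beside 0.02, 0.07 and -0.06 for all genes. Lung epithelium markers were also higher at day 14 than at day 7, with means of 7 from 5.93 to 6.36 on day 14 arrays against 5.40 to 5.86 on day 7 arrays, and their part in the clock gene differences was not tested.

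The day 14 array of replicate 5 was set against the ranges of both ages. On it 7 of 10 members (Arntl, Per1, Per2, Per3, Cry1, Nr1d2 and Tef) were inside the range of the 5 day 7 arrays and outside that of the other 4 day 14 arrays. For all 15893 genes the share inside the day 7 range was also 70.0%, so being inside it was no more frequent among the members, and 42.3% of all genes met both conditions. Nr1d1 (-1.40) and Dbp (3.05) fell between the groups, and Npas2 (-6.46) was inside the range of the other day 14 arrays. The cause was not tested.

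**Figure D3:**
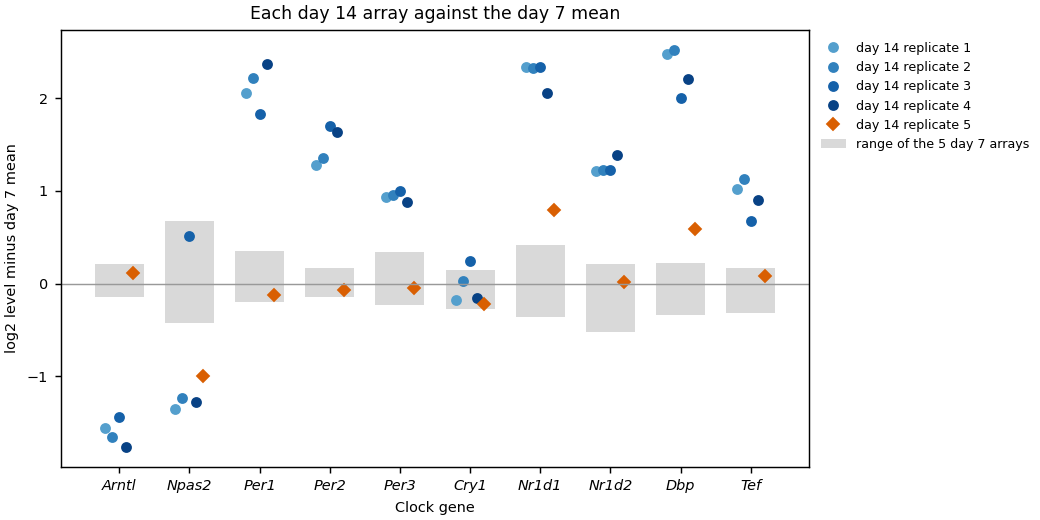
Level of each clock gene (x axis) on the 5 day 14 arrays, as the log2 level minus the day 7 mean (y axis), with grey bars for the range of the 5 day 7 arrays. Replicates 1 to 4 (circles) lie together for Arntl, the Per genes, Nr1d1, Nr1d2, Dbp and Tef, and replicate 5 (diamonds) lies inside the day 7 range for 7 of 10 genes, the same share as among all genes tested (70.0%).

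Members also differed between arrays of the same age. The residual SD within ages over all 24 arrays was 0.20 for Cry1 (percentile 5.42 of all genes), 0.44 for Arntl (42.1), 0.68 for Dbp (80.4), 0.69 for Per1 (81.1) and 1.30 for Nr1d2 (96.9), where the median gene had 0.48. Over the 19 arrays left without those that stood apart, 9 of 10 members were above the median of all genes (0.21), from Tef at the percentile of 70.1 to Npas2 at 91.6, and Cry1 was below it at 28.4. The Npas2 probe was well above background on 11 of 24 arrays, so its spread includes values near background. With day 14 replicate 5 also left out the 9 remained above the median (0.19), with Arntl at the percentile of 53.5, Per1 at 55.7, Dbp at 76.3 and Per2 at 78.2. On the arrays that stood apart, Per1, Cry1, Nr1d1, Dbp and Tef were higher than on the other arrays of the same age at each of days 1, 4 and 42, and Nr1d2 was lower at each. The share of all genes split in this way was not computed. Those arrays lay far from the rest along principal component 1 of all genes tested (49.8% of the variance), so the split is not read as a trait of the members.

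Arntl was set against each of the other 9 members by the deviation of every array from its age mean, with 100000 permutations within ages (two-sided) and adjustment over the 9 relations. Arntl and Per1 had r = -0.84 (adjusted p = 0.0030) and rho = -0.74 (adjusted p = 0.0051) over 24 arrays. For Dbp r was -0.81 (permutation, adjusted p = 0.0030) and rho -0.75, for Tef r was -0.76 (adjusted p = 0.0013) and rho -0.78, and for Nr1d1 r was -0.74 (adjusted p = 0.0082) and rho -0.66. Arrays with more Arntl than their age mean thus had less of these 4 genes. Per2 (r = -0.57), Per3 (-0.48), Cry1 (-0.28), Npas2 (0.19) and Nr1d2 (0.17) did not pass (adjusted p from 0.156 to 0.462). Both genes of a pair share the array and its scaling, and under median scaling 0 of 9 relations passed, 0 of 9 before adjustment too (r = -0.51 for Per1, -0.42 for Nr1d1, -0.44 for Dbp and -0.30 for Tef, permutation).

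The relations depended on which arrays entered. Without day 14 replicate 5 alone Nr1d1 no longer passed (r = -0.64, permutation, adjusted p = 0.0651), and Per1, Dbp and Tef did. The 2 farthest from the median of Arntl were day 1 replicate 4 (-0.71 from its age mean) and day 14 replicate 5 (1.37). Without both, deviations were still taken from the age means of all 24 arrays. Then r was -0.66 for Per1 (permutation, adjusted p = 0.0558), -0.58 for Nr1d1 (0.129), -0.69 for Dbp (0.0545) and -0.70 for Tef (0.0219). Npas2, well above background on 11 of 24 arrays, then passed at 0.42 (permutation, adjusted p = 0.0219). Day 14 replicates 1 to 4 were all below the kept age mean for Arntl (-0.50 to -0.18) and all above it for Per1 (0.16 to 0.70). The r of this setting thus hold an offset left by the removed arrays, and no pass or loss is read from them. Without the 5 arrays that stood apart 5 passed, with r of -0.89 for Per1, -0.78 for Per3, -0.80 for Nr1d2, -0.88 for Dbp and -0.84 for Tef, and Nr1d1 did not (-0.78, permutation, adjusted p = 0.104). With day 14 replicate 5 left out too, 0 of 9 passed over 18 arrays (r = -0.29 for Per1, -0.17 for Nr1d1, -0.55 for Dbp and -0.66 for Tef), and 2 of 9, Npas2 and Tef, had an unadjusted permutation p under 0.05. Within slides 1, 2 and 3 (8 arrays each, described without a test) r was -0.77, -0.48 and -0.98 for Per1 and -0.84, -0.57 and -0.89 for Dbp. An age had 1 or 2 arrays on a slide, and an age with 1 array adds nothing. Each of these r thus rests on a few pairs of arrays. On slide 3 the widest pair was day 14 replicates 3 and 5 (Arntl -1.22 and 0.33, Per1 5.58 and 3.63).

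**Figure D4:**
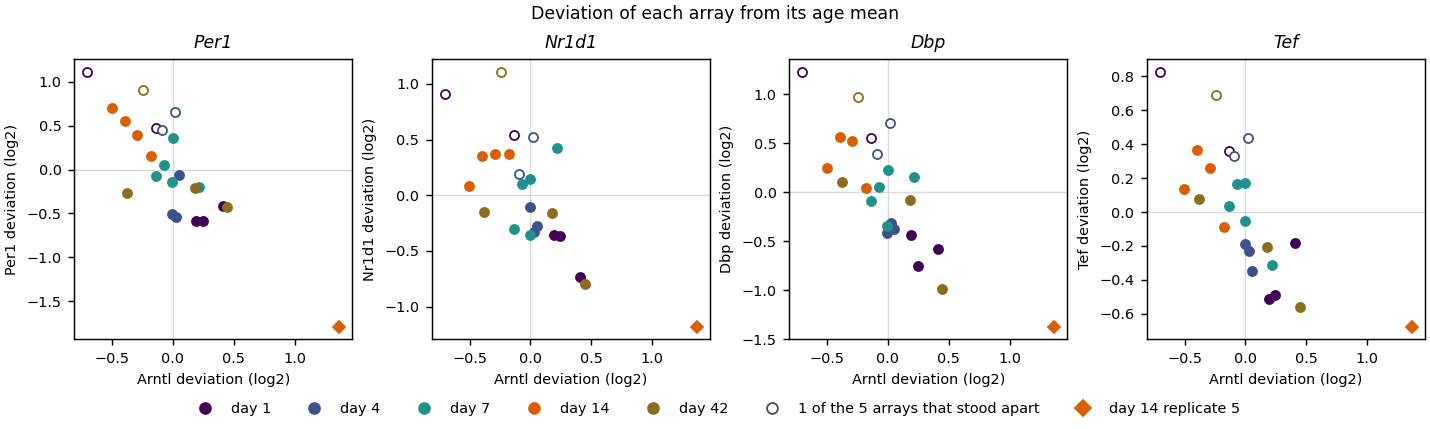
Deviation of each array from its age mean for Arntl (x axis, log2) and for Per1, Nr1d1, Dbp and Tef (y axes, log2), 24 arrays coloured by age, with open circles for the 5 arrays that stood apart and a diamond for day 14 replicate 5. The diamond lies at 1.37 on the Arntl axis, far from the other arrays, and is the lowest point on each y axis (r from -0.84 to -0.74 over all arrays).

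The genes whose deviations were most like those of Arntl, by Pearson's r over the 19 arrays and among 13192 genes well above background on all arrays, were Rgs16 (r = 0.98), Enpp1 (0.97), Lhfpl2 (0.97), Agt (0.96) and Lrrc15 (0.96). Over all 24 arrays their r was 0.65, 0.67, 0.73, 0.55 and 0.65, and over the 18 arrays without day 14 replicate 5 it was 0.88, 0.89, 0.82, 0.85 and 0.85. Those most like Dbp were Gpr146 (0.94), Nat8 (0.93), Atp1b1 (0.91), Tns2 (0.90) and Dll1 (0.90), with 0.96, 0.93, 0.68, 0.95 and 0.93 over 24 arrays and 0.80, 0.78, 0.70, 0.67 and 0.77 over 18.

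Of 21 other genes of the clock and its outputs, all on the array and tested, 10 differed over the 5 ages by the F-test, against 31.8% of all genes. Between day 14 and day 7 the test called 5 of 21, against 11.6% of all genes. Higher at day 14 were Usp2 (1.35 ± 0.30, limma, adjusted p = 0.00363), a deubiquitinase driven by the clock, Bhlhe40 (0.93 ± 0.23), a repressor that competes for E-boxes, and Hlf (0.54 ± 0.16), the third relative of Dbp and Tef. Nfil3, which represses through the same D-boxes, was lower by -1.24 ± 0.38 (adjusted p = 0.0374). Bhlhe41, the relative of Bhlhe40, was also called as higher at day 14 (adjusted p = 0.0427), but its probe exceeded background clearly on 5 of 5 arrays at day 14 and 1 of 5 at day 7, so the size is not given. For Nfil3 the day 14 levels were 0.04, 0.40, 0.34, 0.19 and 1.94, against 1.57 to 2.26 at day 7, so replicate 5 was again inside the day 7 range.

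Hlf was the 1 of 21 called for day 4 against day 1 (0.83 ± 0.16, limma, adjusted p = 0.0494), where 0.0629% of all genes were called. It had -1.66, -1.80, -1.59, -1.78 and -1.88 at day 4, against -2.65, -2.34, -2.55, -2.43 and -2.90 at day 1, with no overlap (1.62% of all genes did not overlap there). For day 7 against day 4 the test called 0 of 21 (3 at an unadjusted p under 0.05), against 0.00629% of all genes. Hlf (-1.26 ± 0.17, adjusted p = 9.17e-05) and Wee1 (-0.91 ± 0.15), a cell cycle kinase gene with E-boxes, were the 2 of 21 called for day 42 against day 14 (3.69% of all genes), both lower at day 42. For day 42 against day 1 the 4 of 21 called were no more than the share of all genes (26.7%). Bhlhe40 was higher (0.76 ± 0.25), and Nfil3 (-1.15 ± 0.41), Timeless (-0.73 ± 0.17) and Wee1 (-1.53 ± 0.15) were lower. Clock, the usual partner of Arntl, was called in no comparison with all arrays in the fit. Its levels were -2.97 to -2.36 on the 5 arrays that stood apart and -0.47 to 0.96 on the other 19, the same split as for Nr1d2. Without those 5 Clock was higher at day 42 than at day 1 (0.71 ± 0.25, limma, adjusted p = 0.0289), where 46.6% of all genes were called in either direction.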

How the data were processed

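The members and gene lists were chosen with earlier results of these data known. Spot intensities (processed signal, background-subtracted and detrended) were extracted by the authors with Agilent Feature Extraction, version 10.7.3.1 in the file headers and 10.7.1.1 in the submitters' processing notes. Median signal and local background intensity and the flag columns, scored 0 or 1, are further columns of those scans, per the file headers. The authors also deposited a table of log2 values (52095 probes), whose normalization is not given in the sources used here and which served as an alternative.

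From the 59305 non-control spots, non-uniform ones were removed and replicate spots averaged (55681 probes, 138 of them removed for lack of a usable spot on at least 1 array), and log2 of the processed signal minus each array's 75th percentile was taken. Of 26634 probes with a RefSeq transcript accession, 25983 matched a RefSeq gene table (GRCm38.p6, used for names and promoter windows). A gene was read by its probe of highest mean and tested when 4 or more arrays had that probe well above background. No spot was saturated (0 on every array), and the 75th percentile ran from 476.1 to 1652.7 intensity units. The number of arrays limits the precision.

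The fit was made in limma 3.58.1 (R 4.3.3) with 1 mean per age, with 5 comparisons and an F-test. Named genes are all 10 members, every gene of the 21 others called in a comparison (and Clock, singled out after its values were seen), and the 5 genes most like Arntl and the 5 most like Dbp. The relations of Arntl used Python 3.11.15. On simulated data with 15893 genes, 38%, 36%, 32%, 30% and 30% of genes changed 2-fold were recovered for day 4 against 1, 7 against 4, 14 against 7, 42 against 14 and 42 against 1. Of genes changed 4-fold, 78%, 79%, 79%, 78% and 76% were recovered in the same order. Alternatives were normexp background (offset 50, on median signals, since the scans used here hold no mean signal), quantile and median scaling, the authors' table, other filters on dim probes, the mean of probes, slide and replicate blocks, and leaving out arrays. Same-numbered samples did not deviate together (r over 46 pairs from -0.85 to 0.88, median -0.01), so the numbers were not taken as pairs.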

Additional observations from a re-analysis of the deposited data

Results flagged for a closer look

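In 13 of 50 groups (10 members at 5 ages) the gap of 1 array to its nearest neighbour exceeded the critical share of the group's range at the 95% level (Dixon's test, about 1 in 20 by chance for a single group). The share among all genes was not computed, and the groups share the same 24 arrays, so the count is no result about the members. Day 14 replicate 5 was the array with the gap for 7 members. On it 38.1% of all genes tested were within the range of the other day 14 arrays. The gap, as a share of the range of day 14, was 0.826 for Arntl, where this array was high, and 0.783 for Per1, 0.762 for Per2, 0.888 for Per3, 0.815 for Nr1d1, 0.876 for Nr1d2 and 0.734 for Dbp, where it was low.

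Day 42 replicate 4, 1 of the 5 arrays that stood apart, was high in Per1 (0.842) and low in Nr1d2 (0.842). Npas2 was low on day 1 replicate 5 (0.867), also 1 of those 5 arrays, but its probe was not well above background there, so no low level is read. Npas2 was high on day 14 replicate 3 (0.811), where thymus and heart markers were high as well. Per2 was low on day 4 replicate 3 (0.718), and Nr1d2 was low on day 7 replicate 5 (0.736).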

How the results depend on the processing

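No difference of a member and no relation with Arntl that was called over all 24 arrays reversed its sign under any alternative run. Arntl against Nr1d2 was not called over all arrays, where r was positive, and was called with a negative r without the 5 arrays that stood apart. Leaving out 1 array at a time, members past the test numbered 0 to 0 for day 4 against day 1 and for day 7 against day 4, 5 to 7 for day 14 against day 7, 3 to 4 for day 42 against day 14, 3 to 4 for day 42 against day 1 and 7 to 9 by the F-test, and Arntl relations past the test numbered 3 to 5. Without the 5 arrays that stood apart and day 14 replicate 5, 1 member (Per1) passed for day 4 against day 1 and 1 (Per1) for day 7 against day 4. Arntl relations past the test numbered 0 under median scaling, 0 without those 6 arrays and 2 without the pair of arrays farthest in Arntl, an alternative added after seeing the data. That alternative kept the age means of all 24 arrays, so its count holds an offset left by the removed pair. Members more variable within ages than the median gene numbered 5 over all 24 arrays, 9 without the 5 arrays and 9 without the 6, the last also added after seeing the data. With the replicate number as a block, which does not pair these samples, 6, 4 and 3 members passed for day 14 against 7, 42 against 14 and 42 against 1, and Per1 lost its call in the last (1.13, limma, adjusted p = 0.087). Arntl against Tef lost its call with the authors' table (r = -0.61, permutation, adjusted p = 0.129). Median scaling moved the median difference of all genes to -0.37, -0.17 and 0.30 for day 7 against 4, 14 against 7 and 42 against 14, and the members' medians were then -0.20, 0.69 and 0.03. Quantile normalization and the authors' table added Npas2 (-1.32 and -1.42) and Tef to the calls for day 14 against day 7, whereas with normexp background Npas2 differed by -0.06. The causes were not tested. Dim signal limits Npas2, well above background on 11 of 24 arrays, and Bhlhe41, on 17 of 24.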
